A study of Mus musculus with 8 samples.

Results

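Complement genes and Apoe were followed across epithelium and stroma spots of mouse uterus with and without the Polycomb methyltransferase gene Ezh2. The members are 8 genes chosen by symbol, namely C1qa, C1qb, C1qc, C1ra, Serping1, C4b, C3 and Apoe, out of 5828 genes in the deposited tables. Of the 8, 6 are listed in at least 1 table and 3 (Apoe, Serping1 and C1ra) in all 4, whereas C4b and C1qc are listed in none and were not analysed here. The table of KO against WT epithelium lists 5 members, that of epithelium against stroma in KO 6, the same contrast in WT 4 and KO against WT stroma 3.

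Uteri of 4 WT and 4 Ezh2cKO females (KO below) were sectioned at 10 µm onto Visium slides, on which barcoded spots capture messenger RNA in place, and a spot can hold several cells. All animals carried floxed Ezh2 alleles (genotype EZ fl/fl) on a mixed C57BL/6 and 129SvEv strain background, so the WT group is floxed and without Cre. KO animals also carried Prcre/+, a Cre allele at the progesterone receptor locus, which limits deletion to cells that express or once expressed that receptor. Every female was ovariectomized at postnatal day 71 ± 4 and its uterus was taken at day 112 ± 11, and each of 4 litters gave 1 female of each genotype. The authors pooled the animals of a genotype, so each gene has 1 value in each of 4 pools (WT epithelium, KO epithelium, WT stroma and KO stroma), and how animals vary within a genotype cannot be measured.

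Complement is a cascade of plasma and tissue proteins that tags surfaces for removal. In its classical pathway the hexameric recognition protein C1q is built from the products of C1qa, C1qb and C1qc and made largely by macrophages. It binds a target and activates the serine proteases C1r and C1s. Of these, C1s cleaves C4 and C2 to form the enzyme that splits C3, the point where all pathways meet. Serping1 encodes C1 inhibitor, a serpin that inactivates C1r and C1s. C3 is known as a secreted product of uterine epithelium that responds to estrogen. Apoe encodes apolipoprotein E, which carries lipid between cells and is made by macrophages and many tissue cells.

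The values rest on counts of unique molecular identifiers (UMIs, each a captured transcript), which were recovered from the deposited averages and came out whole. Sums could be recovered only for listed genes. They came to 1428541 UMIs over 5821 genes in WT epithelium, 1552958 over 5823 in KO epithelium, 416747 over 1782 in WT stroma and 947663 over 2752 in KO stroma. These numbers follow the length of the lists that hold a pool, so they are neither library sizes nor counts of detected genes. Levels below are UMIs per unit of size factor on the scale of the KO against WT epithelium table, and the other tables, which the authors normalized separately, were brought to that scale through the pools they share. As a check of the compartment names, 12 of 12 listed simple epithelium markers had calls toward epithelium in WT and 16 of 16 in KO. Of the endometrial stroma markers, 10 of 14 listed had calls toward stroma in WT but 4 of 15 in KO. Smooth muscle markers lay on the stroma side too, with calls for 9 of 9 listed in WT and 5 of 7 in KO. The targeted gene, Ezh2, was not analysed here, so its loss in the KO pools was not checked. A gene is listed only where its average passed 1 in at least 1 group of the table, so a low gene enters more readily where it is high in 1 group. A gene is called below where the authors' deposited adjusted p-value is under 0.05.

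In WT uterus the listed members divided by compartment, with C3 higher in epithelium and Apoe, Serping1 and C1ra higher in stroma. Apoe was 4.42-fold higher in stroma, Serping1 2.45-fold and C1ra 2.00-fold, and C3 was 2.59-fold higher in epithelium. All 4 listed members were called, 1 toward epithelium and 3 toward stroma. Of these only Apoe had averages above 1 on both sides, while C3 was listed through epithelium and C1ra and Serping1 through stroma, so their direction was fixed by the listing limit and the count is a description. Of the 1769 genes of that contrast 28.8% had a call, 13.1% toward epithelium and 15.7% toward stroma. The compartment contrasts below ask where in the uterine wall each transcript lies, and the genotype contrasts ask whether its level differs when Ezh2 is deleted.

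**Figure D1:**
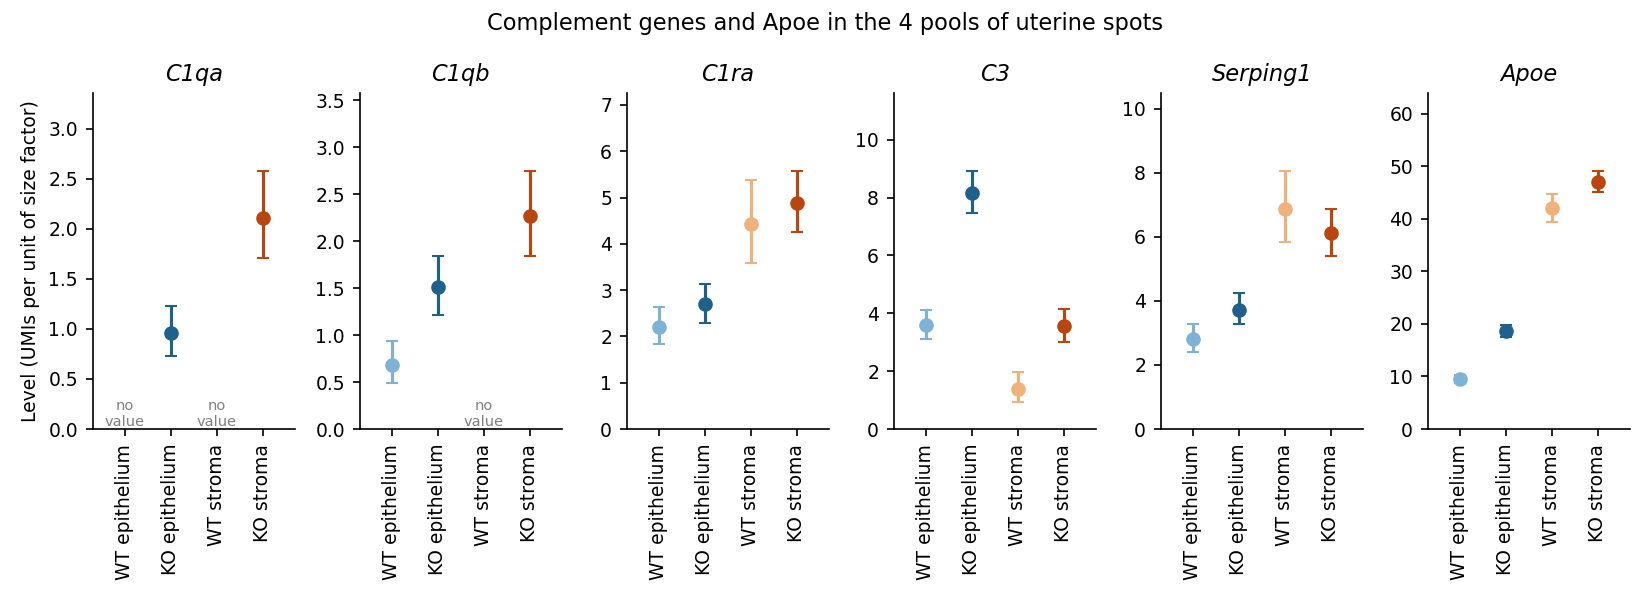
Level of each listed member in the 4 pools, as UMIs per unit of size factor on 1 common scale (y axes start at 0 and differ between panels); bars are exact 95% Poisson intervals and cover counting error only. C3 is highest in KO epithelium at 8.17, while Apoe is highest in KO stroma at 47.1 and lowest in WT epithelium at 9.51; "no value" marks pools in which a gene was not listed.

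The recognition genes C1qa and C1qb were sparse. They lie side by side on chromosome 4 of GRCm38 on the minus strand, C1qb at 136880129 to 136886187 and C1qa at 136895917 to 136898803, with C1qc between them, and GENCODE annotates all 3 as protein-coding genes within 18675 bases. C1qa had 59 UMIs in KO epithelium and 95 in KO stroma, levels of 0.957 and 2.11. It was called higher in KO stroma, by 2.20-fold (95% counting interval 1.58 to 3.11), and the authors' deposited table gives it an adjusted p of 0.0365. The WT pools gave no value for C1qa, so its genotype contrast was not analysed here.

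C1qb had 39 UMIs in WT epithelium, 93 in KO epithelium and 102 in KO stroma, levels of 0.685, 1.51 and 2.26. The order was thus WT epithelium, KO epithelium, KO stroma. C1qb was not called between the KO compartments, where stroma stood 1.50-fold above epithelium (1.12 to 2.01, adjusted p = 0.534 in the authors' deposited table). Between genotypes in epithelium KO stood 2.20-fold above WT (1.50 to 3.29), and this was not called either (adjusted p = 0.746 in the authors' deposited table). The counting interval holds only the error of counting molecules, so an interval that leaves out 1 is no test between animals.

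C1ra encodes a mouse C1r protease and lies at 124512405 to 124523443 on the plus strand of chromosome 6, where C1s1, which encodes its partner protease C1s, follows after 6901 bases. Near-identical copies, C1rb and C1s2, lie further along the same chromosome, and how the authors' counting assigned reads shared between copies is not given in the sources used here, so both C1ra and C1s1 values are uncertain in that respect. C1ra had 126 UMIs in WT epithelium, 166 in KO epithelium, 99 in WT stroma and 220 in KO stroma. The levels were 2.21, 2.69, 4.42 and 4.88, so both stroma pools lay above both epithelium pools and neither genotype pair separated beyond its counting interval. C1ra was called higher in stroma in WT, 2.00-fold (1.52 to 2.62, adjusted p = 0.0123), and in KO, 1.81-fold (1.48 to 2.23, adjusted p = 0.0372), in the authors' deposited tables. C1s1 was ordered as C1ra was, from WT epithelium over KO epithelium and WT stroma to KO stroma. It was called higher in WT stroma by 2.14-fold (adjusted p = 0.000228 in the authors' deposited table), and in KO stroma stood 1.56-fold above KO epithelium without a call (adjusted p = 0.0861 in the authors' deposited table).

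Serping1, on chromosome 2 at 84765387 to 84775444 (minus strand, protein coding), had 160 UMIs in WT epithelium, 230 in KO epithelium, 154 in WT stroma and 275 in KO stroma. These are levels of 2.81, 3.73, 6.88 and 6.11. Both stroma pools lay above both epithelium pools, and the stroma intervals overlapped. Serping1 was called higher in WT stroma, 2.45-fold (1.95 to 3.07, adjusted p = 6.56e-05 in the authors' deposited table). In KO the stroma stood 1.64-fold above epithelium (1.37 to 1.96) and was not called (adjusted p = 0.156 in the authors' deposited table). In the stroma of KO animals Serping1 was 0.888 times its WT level (0.726 to 1.09), an interval that holds 1.

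**Figure D2:**
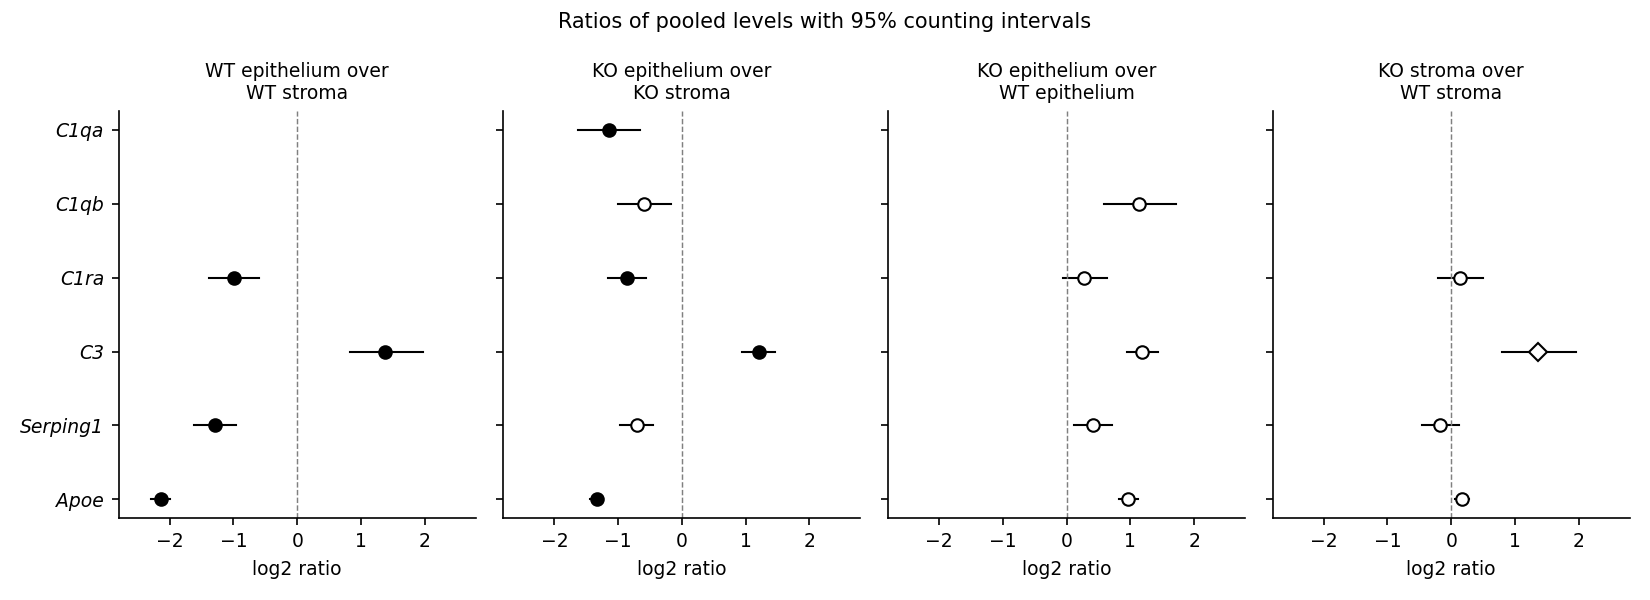
Log2 ratio of pooled levels for each member (x axis) in the 4 comparisons, first-named pool over second, with 95% counting intervals as lines; filled points were called by the authors, open points were not, and the diamond is C3 in stroma, which that table does not list. The filled points lie in the compartment panels only, with C3 at 1.37 in WT and 1.20 in KO, on the opposite side of 0 from Apoe, Serping1, C1ra and C1qa.

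C3 was the one listed member with its higher level in epithelium. It encodes the protein whose cleavage starts opsonisation, and lies at 57203970 to 57228136 on the minus strand of chromosome 17 (protein coding). C3 had 204 UMIs in WT epithelium, 504 in KO epithelium, 31 in WT stroma and 160 in KO stroma, at levels of 3.59, 8.17, 1.38 and 3.55. KO epithelium was the highest pool and WT stroma the lowest, and between them WT epithelium and KO stroma had overlapping counting intervals (3.11 to 4.11 and 3.02 to 4.15). In WT C3 was called higher in epithelium by 2.59-fold (1.77 to 3.91, adjusted p = 0.0126), and in KO by 2.30-fold (1.92 to 2.77, adjusted p = 0.0341), in the authors' deposited tables.

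Between genotypes, the KO level of C3 was 2.28 times the WT level in epithelium (1.93 to 2.70). This was not called (adjusted p = 0.598 in the authors' deposited table). In stroma the recovered sums give a KO level 2.57 times the WT level (1.74 to 3.90). C3 has no deposited p-value there, since its averages of 0.939 in KO and 0.366 in WT stroma lie under the listing limit of 1. Beside this ratio stands that of the simple epithelium markers in stroma spots, of which 12 have a value in all 4 pools. Their summed level was 24.7 in WT stroma and 54.0 in KO stroma, a ratio of 2.19, while in epithelium it was 206 in WT and 178 in KO, a ratio of 0.865. The part of epithelial RNA in the stroma value of C3 was not tested. In epithelium the C3 ratio was 2.28, without a call, beside the epithelial marker ratio of 0.865, and what sets them apart was not tested.

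Promoter windows are shown for C3 and for 2 members with the opposite compartment, Apoe and C1ra, so that the sequence at their starts can be set side by side. RefSeq (GRCm38.p6) gave windows of 300 bases, from 250 before to 50 after the start, for 5 of the 8 members, and Apoe has 3 such starts, of which the one at the GENCODE gene start is printed. The RefSeq start of C3 also equals its GENCODE start, and that of C1ra lies 216 bases inside the GENCODE gene. Capitals mark matches on either strand to the TATA box letters TATAAA, the C/EBP-type site TTNNGNAA and the ETS core GAGGAA. No pair of matches overlaps in these 3 windows, which lie at chr17:57228087-57228386 (minus strand, C3), chr7:19699139-19699438 (minus strand, Apoe) and chr6:124512371-124512670 (plus strand, C1ra).
C3: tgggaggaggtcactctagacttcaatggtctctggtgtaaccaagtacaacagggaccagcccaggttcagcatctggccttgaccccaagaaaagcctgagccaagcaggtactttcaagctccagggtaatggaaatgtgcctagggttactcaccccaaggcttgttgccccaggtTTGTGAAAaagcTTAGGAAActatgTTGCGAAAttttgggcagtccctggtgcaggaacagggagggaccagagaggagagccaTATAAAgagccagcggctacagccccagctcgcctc
Apoe: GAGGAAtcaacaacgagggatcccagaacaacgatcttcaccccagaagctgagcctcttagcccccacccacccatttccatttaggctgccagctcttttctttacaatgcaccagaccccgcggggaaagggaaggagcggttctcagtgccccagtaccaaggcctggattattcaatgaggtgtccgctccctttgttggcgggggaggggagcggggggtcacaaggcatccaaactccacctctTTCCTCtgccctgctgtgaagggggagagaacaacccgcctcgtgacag
C1ra: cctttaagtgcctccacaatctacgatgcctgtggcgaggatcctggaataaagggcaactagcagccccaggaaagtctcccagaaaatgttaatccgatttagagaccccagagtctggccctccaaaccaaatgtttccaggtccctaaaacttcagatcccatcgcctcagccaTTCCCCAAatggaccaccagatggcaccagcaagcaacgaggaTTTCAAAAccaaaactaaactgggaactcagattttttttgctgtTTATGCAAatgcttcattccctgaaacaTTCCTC

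The C3 window holds 3 matches to TTNNGNAA, starting 70, 58 and 45 bases before the RefSeq start, and a TATAAA beginning 14 bases after it. A window with at least 3 such C/EBP-type matches makes up 3.60% of 32851 promoter windows, 1 or more occurs in 40.7%, and TATAAA in 13.6%. The C1ra window also has 3 matches to TTNNGNAA, and the printed Apoe window has none. Of the Apoe windows not printed, the one from 19698349 has a TTNNGNAA match and the one from 19698572 has TATAAA matches. The difference from C3 thus depends on the Apoe start chosen. GAGGAA occurs in 28.3% of windows, in the printed Apoe window 2 times, in the C1ra window 1 time and not in that of C3. C3 has 3 CpG dinucleotides in its window, C1ra 5 and Apoe 10, against a median of 7 over all windows. In all, 11 motifs were searched on both strands, and the 8 not yet named gave 1 match in these 3 windows. It is a TTCNNNGAA, the GAS element, in C1ra, a motif held by 8.30% of windows. No match was found to the AP-1 site TGANTCA (7.81% of windows), the GATA site AGATAA (11.2%), the CCAAT box CCAAT (37.4%) or the SP1 site GGGCGG (35.7%). Nor was there one to an NF-kB site of GGG and TTCC 3 bases apart (5.55% of windows). The palindromic estrogen response element, GGTCA facing its reverse complement 3 bases away, was in none of the 3 windows and in 0.070% of all. The same held for the progesterone response element, AGAACA facing its reverse complement 3 bases away, in 0.0091% of all. A match describes letters only, and no match says only that the letters are not in that window.

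Apoe had the most UMIs of the members in every pool. It lies at 19696109 to 19699188 on the minus strand of chromosome 7 (protein coding), and counted 541 UMIs in WT epithelium, 1149 in KO epithelium, 940 in WT stroma and 2120 in KO stroma. The levels were 9.51, 18.6, 42.0 and 47.1, an order of WT epithelium, KO epithelium, WT stroma and KO stroma in which every neighbouring pair has separate counting intervals. Apoe was called higher in WT stroma by 4.42-fold (3.97 to 4.92, adjusted p = 1.7e-13), and in KO stroma by 2.53-fold (2.35 to 2.72, adjusted p = 1.26e-05), in the authors' deposited tables. In epithelium the KO level was 1.96 times the WT level (1.77 to 2.17) without a call (adjusted p = 0.377 in the authors' deposited table). In stroma it was 1.12 times the WT level (1.04 to 1.21), again without a call (adjusted p = 1 in the authors' deposited table).

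In KO uterus the same division by compartment was found. Of 6 listed members 4 were called, C3 higher in epithelium and Apoe, C1ra and C1qa higher in stroma, beside 9.88% of all 2744 genes, 5.43% toward epithelium and 4.45% toward stroma. Serping1 and C1qb stood higher in stroma without a call. C1qa and C1qb were listed through their stroma average alone, and the other members had averages above 1 on both sides. Compartment contrasts of WT and KO come from separate pools, but each of the 4 pools also enters a genotype contrast, so the contrasts are not independent.

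Between genotypes, none of the 5 listed members was called in epithelium, where 0.12% of 5811 genes were called. Their log2 ratios of KO over WT were 1.19 for C3, 1.14 for C1qb, 0.97 for Apoe, 0.41 for Serping1 and 0.28 for C1ra. The last 2 are ratios of 1.33 (1.08 to 1.63) and 1.22 (0.959 to 1.54), each with an adjusted p = 1 in the authors' deposited table. C1qb entered this table through its KO average alone, so its sign was fixed by the listing limit, and no count or median over the members is read as support. The median of all listed genes was -0.10. None of the 3 listed members was called in stroma, where 1.51% of 1191 genes were called. The stroma log2 ratios were 0.16 for Apoe, 0.14 for C1ra and -0.17 for Serping1, beside a median of -0.05 over all genes, and the authors' deposited table gives all 3 an adjusted p = 1. A higher pooled level can reflect more cells of a type or more RNA per cell, which cannot be told apart here.

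**Figure D3:**
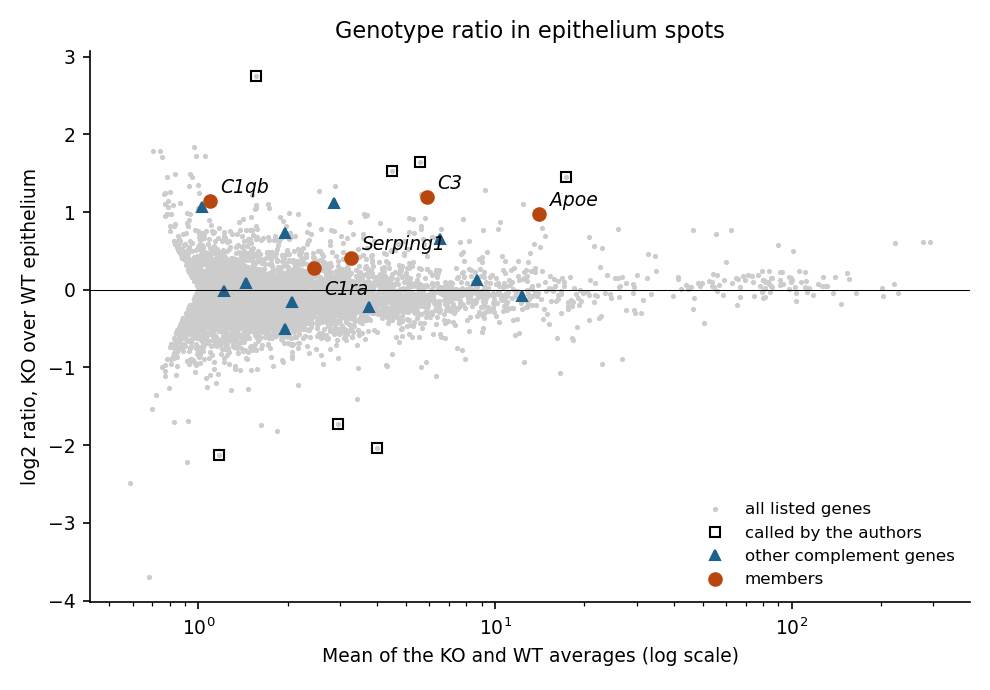
Log2 ratio of KO over WT epithelium (y axis) against the mean of both averages (x axis, log scale) for 5811 genes; circles are members, triangles other complement genes, squares the 7 genes called by the authors. C3, C1qb and Apoe lie between 0.97 and 1.19 and no member is among the called genes.

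The size of the genotype ratio was set side by side in epithelium and stroma. For Apoe the epithelium ratio was 1.75 times the stroma ratio (counting interval 1.54 to 1.99), and for Serping1 1.49 times (1.13 to 1.98). For C1ra the value was 1.10 (0.790 to 1.53) and for C3 0.889 (0.585 to 1.35), both with intervals that hold 1. Over 1755 genes with a value in all 4 pools the median was 0.984. These intervals hold counting error only, and no test between animals could be made of the differences.

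By construction the same 4 values compare the compartment contrasts of KO and WT. The log2 contrast of Apoe was 2.14 toward stroma in WT and 1.34 in KO, and that of Serping1 1.29 and 0.71. Among 257 genes called higher in WT stroma and listed in both tables, 252 had a smaller or opposite contrast in KO, and the median log2 ratio of epithelium over stroma was -1.24 in WT and -0.74 in KO. Apoe, Serping1 and C1ra are among those 252, and the contrast of C1ra was 2.00-fold in WT beside 1.81-fold in KO. C3 contrasts were 1.37 in WT and 1.20 in KO, beside medians of 1.49 and 0.82 over 229 genes called higher in WT epithelium, of which 226 had the smaller or opposite contrast in KO. Choosing genes by their call in WT favours a larger value there. Over all 1737 genes of both tables, with no choice by call, 82.8% had a smaller or opposite contrast in KO. The median change of the absolute log2 contrast was -0.19, beside -0.51 for the genes called higher in WT stroma and -0.80 for those called higher in WT epithelium. Listing still chooses genes, since the 1737 are most of the 1769 genes of the WT contrast but fewer of the 2744 in KO. The size factor total was 22.4 in WT stroma and 45.0 in KO stroma, so counting error, which enlarges absolute contrasts, is greater in WT. The part of these 2 limits in the 82.8% was not tested.

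**Figure D4:**
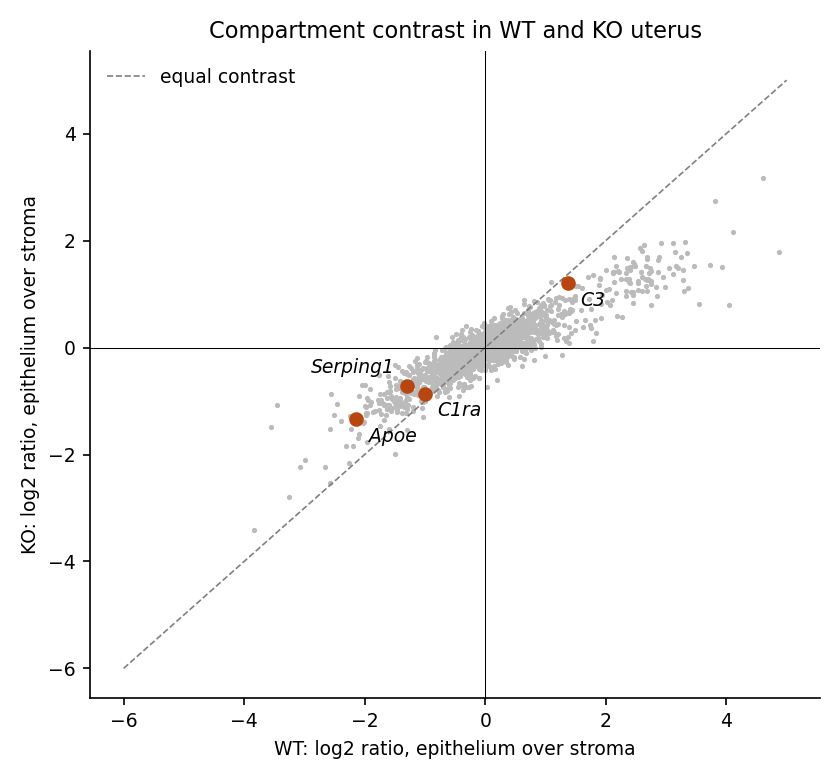
Log2 ratio of epithelium over stroma in KO (y axis) against WT (x axis) for 1737 genes listed in both compartment tables, with the line of equal contrast dashed and 4 members as large points. C3 (1.37 in WT, 1.20 in KO) and C1ra lie close to the line, Apoe (-2.14 and -1.34) and Serping1 nearer to 0 in KO.

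The rest of the cascade was followed through fixed lists. Of 26 other components and proteases only C1s1 and Colec12, a scavenger receptor of the collectin family, were listed in any table. Both were called higher in WT stroma, Colec12 by 3.03-fold (adjusted p = 2.99e-05 in the authors' deposited table), and neither was called in the other 3 tables. Colec12 was listed between the WT compartments through its stroma average alone, so its direction there was fixed by the listing limit. In epithelium the KO level was 1.57 times the WT level for C1s1 (490 and 288 UMIs) and 1.66 times for Colec12 (151 and 84 UMIs), and the list's median log2 ratio was 0.69. In stroma the ratios were 1.15 for C1s1 and 0.855 for Colec12.

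Among 26 complement regulators and receptors 9 were listed in epithelium between genotypes, with no call and a median log2 ratio of -0.02, which turns to 0.09 once centred on the median gene. Calr, which encodes calreticulin, had 740 UMIs in KO and 721 in WT epithelium, a ratio of 0.947. The endothelial thrombomodulin gene Thbd had 243 and 103 UMIs, a ratio of 2.18, and was not called (adjusted p = 0.719 in the authors' deposited table). In WT, 3 of 6 listed genes were called higher in stroma and none in epithelium, beside 15.7% and 13.1% of all genes. Among them were Cd93, once described as a C1q receptor and known from endothelium, at 4.75-fold and Thbd at 3.38-fold. Their adjusted p-values in the authors' deposited table were 3.89e-08 and 1.17e-06. Cd93 and Thbd were listed in WT through their stroma average alone, so their direction was fixed by the listing limit. In KO, Cd93 alone of 6 was called, 2.42-fold higher in stroma (adjusted p = 0.00475 in the authors' deposited table). There too it was listed through its stroma average alone. Of the 3 regulators listed between genotypes in stroma none was called, with Calr at 0.990 times the WT level.

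Lipid transport genes were listed around Apoe. Of 28 fixed genes 8 were listed between genotypes in epithelium without a call, with a median log2 ratio of 0.02. Lrp1, which encodes a receptor for apolipoprotein E, had 410 UMIs in KO and 229 in WT epithelium, a ratio of 1.65 (1.40 to 1.95, adjusted p = 1 in the authors' deposited table), and Npc2, which encodes a lysosomal cholesterol carrier, had 400 and 315, a ratio of 1.17. In WT, Lrp1 was called higher in stroma by 2.05-fold (adjusted p = 0.000767) and Pltp, the phospholipid transfer protein gene, by 1.86-fold (adjusted p = 0.0103), in the authors' deposited table, as 2 of 3 listed. None of 6 was called between the KO compartments, where Lrp1 stood 1.51-fold and Npc2 1.08-fold higher in stroma. Between genotypes in stroma none of 3 was called, and Lrp1 stood at 1.21 and Npc2 at 1.19 times the WT level.

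Among 16 serpins and other protease inhibitors 8 were listed in epithelium between genotypes, 7 of them with a higher value in KO, and none was called. Their median log2 ratio was 0.50, beside -0.10 over all listed genes. A2m and Serpinb1a were listed through their KO average alone, so their sign was fixed by the listing limit and the count is a description. Serpinh1, which encodes a collagen chaperone, stood at 1.40 times the WT level and Cst3, the cystatin C gene, at 1.19 times. None of 4 was called between genotypes in stroma (Serpinh1 1.42 and Cst3 0.983 times WT), none of 4 between the WT compartments and none of 6 between the KO compartments. In both compartment contrasts Cst3 and Serpinh1 stood higher in stroma, by 1.51-fold and 1.23-fold in WT and by 1.25-fold for both in KO.

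Markers of other cell types were set beside the members. Of 22 macrophage markers 8 were listed in epithelium between genotypes, with 5 higher in KO, a median log2 ratio of 0.19 and no call. Fcer1g was listed there through its KO average alone, so its sign was fixed by the listing limit. Tyrobp, a myeloid signalling adaptor gene, had 117 UMIs in KO and 66 in WT epithelium, while Lyz2, the lysozyme gene of myeloid cells, had 161 and 214. The 4 macrophage markers with a value in all pools (Lyz2, Cd14, Cd74 and H2-Ab1) summed to levels of 22.0 in WT epithelium, 20.2 in KO epithelium, 28.3 in WT stroma and 30.2 in KO stroma. Of these Lyz2 was called 2.18-fold higher in KO stroma and Cd14 was called higher in epithelium in both genotypes, and Cd74 and H2-Ab1 are also expressed outside macrophages. Cd14 was listed in both compartment contrasts through its epithelium average alone, so its direction was fixed by the listing limit. No listed macrophage marker was at 0, and the defining markers Csf1r, Adgre1, Cd68 and Mrc1, though in the fixed list, were listed in no comparison. The share of macrophage RNA in C1qa, C1qb and Apoe was not tested.

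The 14 endometrial stroma markers with a value in all pools summed to 125 in WT epithelium, 169 in KO epithelium, 395 in WT stroma and 336 in KO stroma, so KO epithelium stood at 1.34 times WT epithelium. Dcn, which encodes the matrix proteoglycan decorin, made up 67.2 of the KO epithelium sum and had a ratio of 1.28. Single stroma markers in epithelium ranged from 0.832 for Fbln1 to 1.89 for Vim, with the collagen genes Col1a2 at 1.83, Col3a1 at 1.74 and Col1a1 at 1.71, and none of 15 listed was called. Beside these ratios stand 1.96 for Apoe, 1.33 for Serping1 and 1.22 for C1ra in the same spots. The part of stroma RNA in epithelium spots was not tested. Smooth muscle markers (8 with a value in all pools) were 0.662 times the WT level in KO epithelium and 0.463 times in KO stroma. Between genotypes in stroma, 5 of 8 listed smooth muscle markers were called lower in KO, and none of 10 listed was called in epithelium. Of 14 endometrial stroma markers listed between genotypes in stroma, 1 was called, also lower in KO. In that contrast 1.51% of all 1191 genes were called. The 4 blood endothelium markers stood at 1.13 times the WT level in KO epithelium and 0.755 times in KO stroma. Plasma cell genes Jchain and Igkc, the listed ones of 12 lymphocyte and plasma cell markers, summed to 1.71 times the WT level in KO epithelium and 0.719 times in KO stroma. The globin genes Hba-a1 and Hbb-bs, the ones of 6 blood and platelet markers with a value in all pools, stood at 1.77 and 0.387 times, and none of 8 neutrophil markers was listed.

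**Figure D5:**
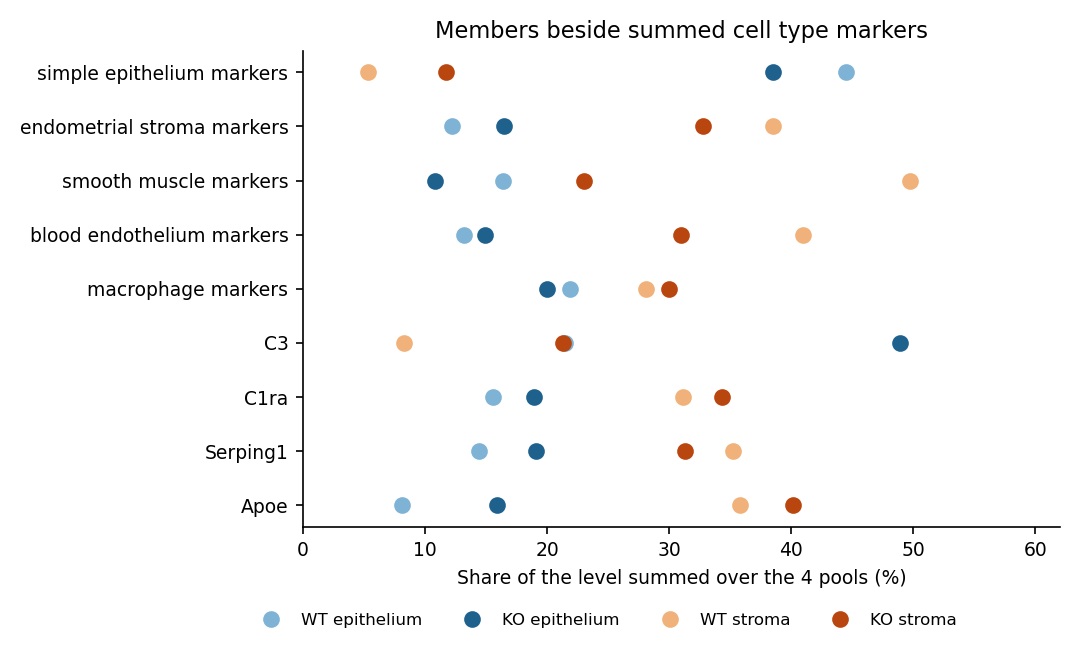
Share of each level, summed over the 4 pools, that lies in each pool (x axis, percent) for 5 summed marker lists and the 4 members with a value in all pools. C3 has 49.0% of its summed level in KO epithelium and 8.29% in WT stroma, and Apoe has 40.2% in KO stroma and 8.11% in WT epithelium.

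For the 3 members listed in all tables the nearest genes by pattern were sought among 802 genes listed in all 4 tables with at least 100 UMIs in every pool. Likeness was the Euclidean distance between log2 levels over the 4 pools, each gene centred on its own mean, and 4 pools make this a loose description. Among the 3 nearest to C1ra were Zcchc24 (distance 0.131) and Sfrp2 (0.131), and nearest to Serping1 were Axl (0.104), Htra3 (0.115) and Cdh5 (0.138). Apoe had no neighbour that close, with Cd34 at 0.295, Dpt at 0.299 and Vim at 0.397. Cd34 had 143 UMIs in WT epithelium, 303 in KO epithelium, 216 in WT stroma and 439 in KO stroma.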

How the data were processed

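Visium libraries of 4 WT and 4 KO uteri were deposited as 4 tables of comparisons and mapped to GRCm38, as the submitters' processing notes name the build. Aligner, spot naming and test: not given in the sources used here. The authors' averages, a signal per spot divided by size factors, pool the animals of a genotype, so how far values vary between animals cannot be seen. The column names give a log2 fold change for each group of a comparison. That it sets each group against the other and holds a pseudocount was inferred from the fit described below. The adjusted p-value (FDR) was also deposited by the authors.

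Each pool's size factor total was fitted (least squares) to its averages and log2 fold changes, then refined so that averages times the total came near whole numbers. Multiplied by that total, 100% of averages came to within 0.01 of an integer, a share that the refinement favours, and 0 sums differed between tables. Ratios use these UMI sums without a pseudocount, with exact 95% Clopper-Pearson intervals for ratios, exact Poisson intervals for levels and a log-scale counting interval for the ratio of 2 ratios. UMIs collapse amplified copies, and all intervals cover counting error only. No p-value was computed. Alternatives were a threshold of 0.01, a minimum absolute log2 ratio of 1, leaving out the lowest 25% of genes, the authors' log2 values, and 2 other scalings. The recovery and the intervals were tested on simulated Poisson counts with 200 changed genes in each table. The intervals rest on that same model, so the coverage does not extend to spread between spots or animals. The intervals covered 95.3% of unchanged genes and 96% of 2-fold changes for KO against WT epithelium (5811 genes), 95.5% and 94% for KO against WT stroma (1191), 95.9% and 90% for the WT compartments (1769), and 96.1% and 98% for the KO compartments (2744), so those of the WT compartments fell short of 95% for 2-fold changes.

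The members, lists and the 11 motifs were chosen with earlier results of these data known. All members were named. Of each pathway list, called genes were named in a table, otherwise the 2 with the most UMIs; a gene so named may also be given in other tables, and Tyrobp, Cd34 and the stroma markers given singly were chosen after their values were seen. Some genes that this rule names are not reported here. GENCODE release M21 gave positions. Python 3.11.15, NumPy 2.4.6, SciPy 1.17.1, pandas 2.3.3 and matplotlib 3.10.9 were used.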

Additional observations from a re-analysis of the deposited data

How the results depend on the processing

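At an adjusted p threshold of 0.01 the genes called were 2 between genotypes in epithelium (7 at 0.05), 10 between genotypes in stroma (18) and 175 between the KO compartments (271), and the members called were 2 between the WT compartments (Apoe and Serping1, from 4) and 1 between the KO compartments (Apoe, from 4). Without the lowest 25% of genes by level, the calls numbered 9 for stroma between genotypes and 327 for the WT compartments (509 with all genes), which drops called genes by construction, among them C3 in WT and C1qa in KO. A minimum absolute log2 ratio of 1 left out C1ra in both genotypes. The authors' log2 values, centring on the median gene and scaling by total UMIs moved none of 18 member ratios outside its counting interval. No paired analysis was possible because every deposited value is a pool of animals, and for the same reason no replicate could be left out. Low counts widen the intervals of C3, with 31 UMIs in WT stroma, and of C1qb, with 39 in WT epithelium.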
